A study of Homo sapiens with 8 samples.

Results

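The genes described here are 40 named genes of the integrated stress response and the unfolded protein response, of 58780 genes in all. They were chosen by symbol, through GENCODE 29, with no measured value in the rule, but with earlier results of these data known. All 40 passed the filter on low counts that left 17446 genes for testing. They fall into 15 regulators and effectors, 11 genes of amino acid synthesis and transport, 8 chaperones and folding enzymes of the endoplasmic reticulum (ER), and 6 genes of ER-associated degradation and its sensing arm. The RNA came from H1, an embryonic stem cell line, at 4 stages of one directed differentiation: hESC (undifferentiated cells), hDE (definitive endoderm, the first step towards gut), hAFE (anterior foregut endoderm) and hPFE (pharyngeal foregut endoderm). Each stage has 2 libraries, and the labels name no other genotype or agent. Only hESC and hDE carry the word re-analyzed in their titles, so between either of them and either later stage library origin and stage cannot be told apart. Nothing in the labels ties the libraries of a stage to separate cultures, and the p-values therefore rest on a spread that may be technical.

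In the integrated stress response, kinases that sense unfolded protein, lack of amino acids, lack of haem or double-stranded RNA phosphorylate the translation factor eIF2alpha. General translation falls, while the transcription factor ATF4 is made in larger amounts and switches on genes of amino acid synthesis and transport together with the factor CHOP (DDIT3). The unfolded protein response shares this arm through PERK and adds IRE1, which splices XBP1 mRNA, and ATF6, which is cut from the membrane; these arms induce ER chaperones and the machinery that degrades misfolded protein. Gene-level mRNA counts measure neither ATF4 translation, nor XBP1 splicing, nor eIF2alpha phosphorylation. In whole cultures a change in RNA per cell and a change in the share of cells of a type cannot be told apart.

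Library totals ran from 12687161 to 17802900 counts. Marker genes followed the labels of the early stages and less so those of the later ones. CER1, a secreted antagonist made by definitive endoderm, was at 7219 and 7995 CPM (counts over TMM-scaled library sizes) in hDE and at most 21.1 in every other library, and POU5F1 was at 858 and 942 CPM in hESC and at most 25.8 elsewhere, while TDGF1, also listed as a pluripotency gene, was higher in hDE (806 and 842 CPM) than in hESC (470.5 and 542 CPM). The 6 anterior foregut markers summed to 307 and 507 CPM in hAFE against 702 and 734 CPM in hDE. OTX2 made up 667 and 698 CPM of the sums in hDE, and 17 and 333 CPM in hAFE. FOXA1, a foregut factor, was at 78.6 and 26.7 CPM in hAFE against 6.14 and 6.88 CPM in hDE. Within hAFE, ISL1 and TBX3 were higher in replicate 2 like OTX2, whereas SOX2, FOXA1 and FOXA2 were higher in replicate 1. The 5 trophoblast and amnion markers, ISL1 again among them, summed to 12.6 and 114 CPM in hAFE and 77.2 and 42 CPM in hPFE. Markers of pharyngeal endoderm were low, with a summed level of 6 genes of 156 and 79 CPM in hPFE against 66.7 and 148 CPM in hAFE, which overlap; PAX1, a pouch gene, was at 26.5 and 17.3 CPM in hPFE and at most 0.658 CPM elsewhere. The 5 mesenchyme markers summed to 1337 CPM in hPFE replicate 1 and 180.5 CPM in hPFE replicate 2, against 7.92 to 14.3 CPM in the other 6 libraries. COL3A1 made up most of the sum in hPFE replicate 1, at 1232 CPM there and 29.7 CPM in replicate 2. LUM was the only one of the 5 to go the other way, at 11.4 and 87.4 CPM. The 5 mesoderm markers summed to 40.6 CPM in hPFE replicate 1 and at most 1.08 CPM elsewhere. The 7SL RNA took 11.7% and 11.4% of the counts in hDE and 3.76% to 8.43% in the other libraries. Over 9852 genes the SD of the log2 difference between the replicates of a stage was wider in hAFE (0.59) and hPFE (0.56) than in hESC (0.31) and hDE (0.27).

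**Figure D1:**
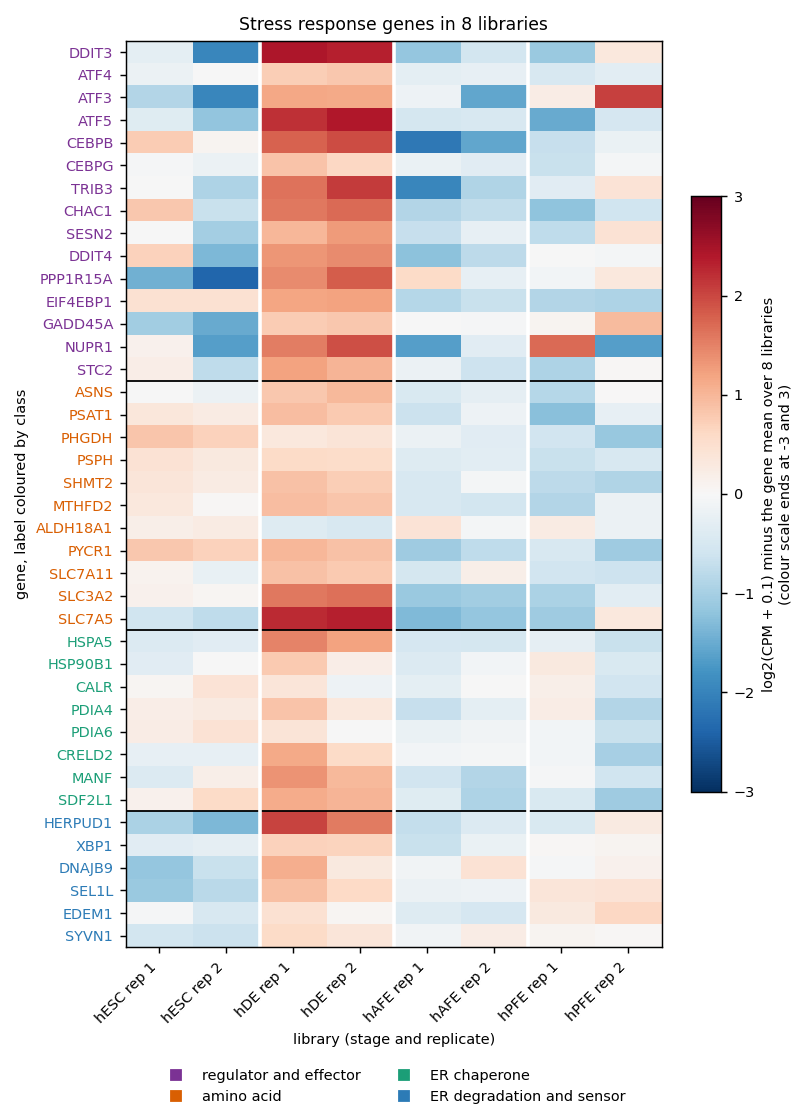
Level of each of the 40 genes (rows, grouped and coloured by class) in each of the 8 libraries (columns), as log2(CPM + 0.1) minus the gene's mean over the libraries, with the colour scale ending at -3 and 3. The hDE columns are above the mean in nearly all rows, and in 30 of the 40 genes both hDE libraries were above the 6 others.

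Most of the 40 genes stood highest in definitive endoderm. Against hESC, 27 of the 40 rose in hDE, 1 fell and 12 did not pass, at an adjusted p under 0.05 in edgeR's quasi-likelihood test with Benjamini-Hochberg adjustment over all genes tested. Of all genes tested, 41.9% were called in this comparison, 20.3% higher and 21.6% lower. The median log2 fold change was 1.11 over the 40 genes and -0.0071 over all genes tested. Since the 40 were listed with earlier results known, contrasts with all genes describe them and are no test. Both hDE libraries were above the 6 other libraries in 30 of the 40 genes, an order that 16.3% of all genes tested showed. By class, that order was seen in 12 of 15 regulators and effectors, 9 of 11 amino acid genes, 5 of 8 chaperones and 4 of 6 degradation and sensor genes. PHGDH was the only one of the 40 with both hESC libraries above all others, an order that 22.4% of all genes showed. Both hAFE libraries were highest in 0 of the 40 and both hPFE libraries in 0, where 7.81% and 9.28% of all genes showed those orders. At the other end, both hESC libraries lay below the 6 others in 6 genes (19% of all genes), 4 of them degradation and sensor genes, both hPFE libraries in 6 (9.79%), 4 of them amino acid genes, both hAFE libraries in 3 (6.66%) and both hDE libraries in ALDH18A1 alone (14.6%).

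The calls depended on having both libraries, and so did those over all genes tested. With the 4 hESC and hDE libraries alone 36 of the 40 were called, where all genes gave 10126 of 16330. With a voom weight per stage 35 were called, where all genes gave 10084 of 17446. Of the 28 calls in hDE vs hESC, 9 were kept under all 18 alternative settings: DDIT3, ATF5, TRIB3, PPP1R15A, GADD45A, SLC7A5, HSPA5, HERPUD1 and SEL1L. Leaving out any hESC or hDE library lowered the number called, among the 40 and among all genes tested. Every one of the 40 still called was higher in hDE. On the deposited TPM values (which allow for gene length) with no further scaling, the median of all genes lay at -0.27 on the log2 scale and 9 of the 40 genes were called higher and 3 lower; after TMM scaling of the same values 28 were called, all higher (limma, adjusted p), and DESeq2 on the counts called 28 higher and 1 lower. Over all 17446 genes, unscaled TPM gave 982 higher and 4430 lower, and TMM-scaled TPM 3028 higher and 3295 lower. DESeq2 gave 3064 higher and 3517 lower. The 7SL share of the counts was also highest in hDE. Of the deposited TPM, 7SL took 38.0% in each hDE library, and 23.8% and 38.2% in hESC. With small structural, mitochondrial and histone genes left out of the library sizes the number called from counts stayed at 27 higher and 1 lower.

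**Figure D2:**
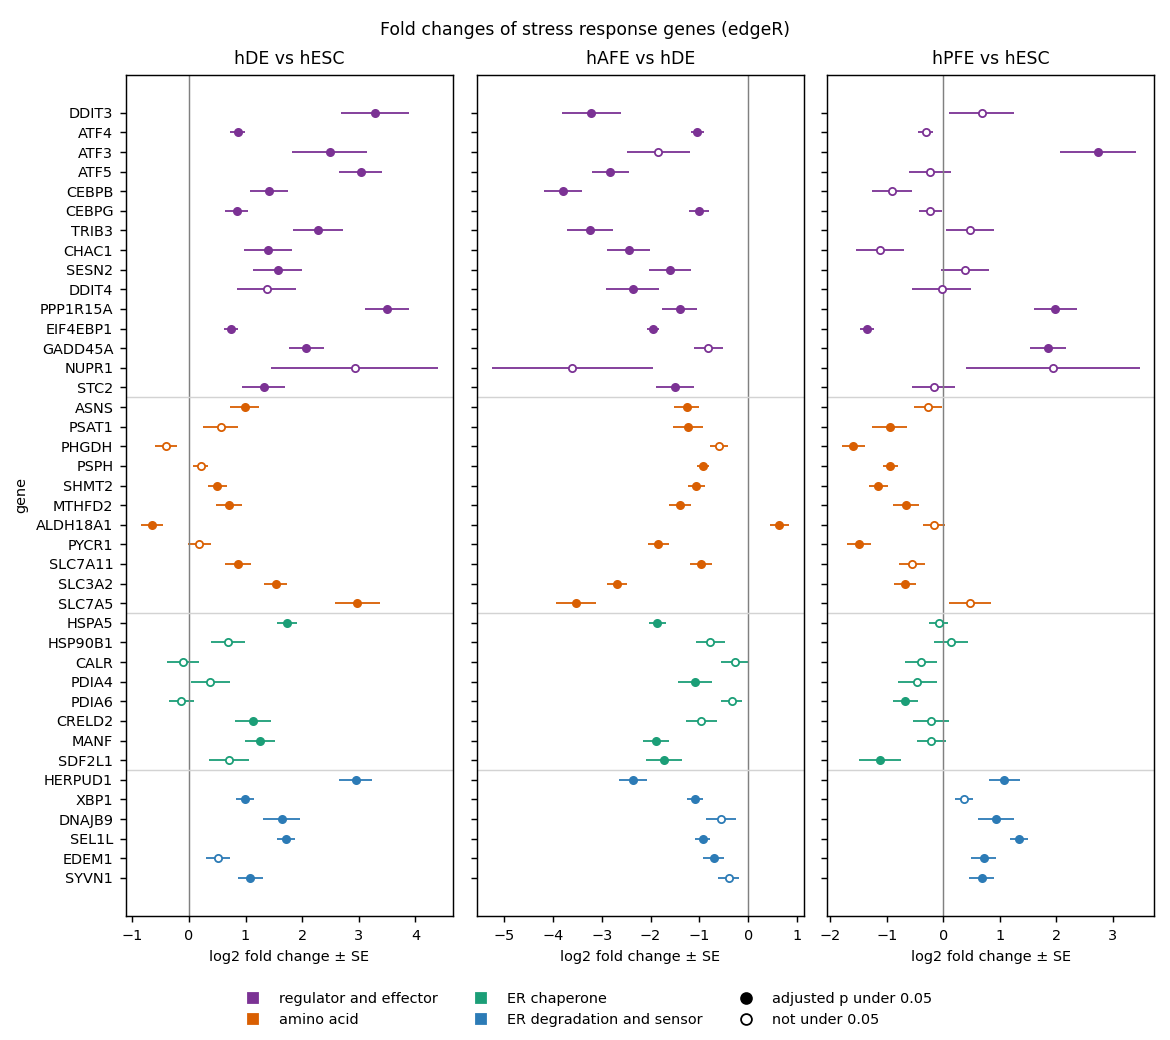
Log2 fold change with its SE for each gene in 3 comparisons, hDE vs hESC, hAFE vs hDE and hPFE vs hESC (n = 2 libraries per stage), with filled points at an adjusted p under 0.05 and colours for the 4 classes. Filled points lie mainly right of 0 in hDE vs hESC and left of 0 in hAFE vs hDE; in hPFE vs hESC the amino acid genes lie left of 0 with 1 exception and the degradation and sensor genes right of it.

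The regulators and effectors had the largest class median. Of 15, 13 rose in hDE and 2 did not pass, with a median log2 fold change of 1.57. PPP1R15A encodes GADD34, the subunit that directs a phosphatase to eIF2alpha and so reverses its phosphorylation. It was at 9.19 and 4.75 CPM in hESC, 67.9 and 88.9 in hDE, 37.8 and 21.4 in hAFE and 23.6 and 31.4 in hPFE. Every hDE value was above every other value, and every hESC value was below. The rise in hDE over hESC was 11.3-fold (log2 fold change 3.49, SE 0.39, adjusted p = 0.000526).

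DDIT3 (chr12:57516588-57521737, minus strand), which encodes CHOP, a factor linked to cell death under long stress, was at 12.6 and 3.9 CPM in hESC, 82.4 and 77.4 in hDE, 6.81 and 10.4 in hAFE and 7.1 and 19.3 in hPFE. It was thus high in hDE alone, and the other 3 stages overlapped one another. The rise was 9.73-fold (log2 fold change 3.28, SE 0.60, adjusted p = 0.00433). ATF5, a bZIP factor whose translation is also controlled through eIF2alpha, was at 8.53 and 4.81 CPM in hESC, 50.2 and 58.7 in hDE, 7.53 and 7.82 in hAFE and 3.76 and 7.65 in hPFE, with the same shape and a rise of 8.17-fold (log2 fold change 3.03, SE 0.37, adjusted p = 0.000795). TRIB3, a pseudokinase that binds ATF4 and AKT, was at 21.6 and 11.3 CPM in hESC, 67.5 and 92.8 in hDE, 5.48 and 11.5 in hAFE and 17 and 28.9 in hPFE. It rose 4.87-fold (SE 0.44 on the log2 scale, adjusted p = 0.00519), and again neither hDE library overlapped another stage.

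ATF4 mRNA itself moved less than these genes. It was at 355 and 397 CPM in hESC, 668 and 699.6 in hDE, 327 and 335 in hAFE and 286 and 319 in hPFE, a rise of 1.82-fold with replicates close together (log2 fold change 0.86, SE 0.13, adjusted p = 0.002). Per length it was among the 3 most abundant of the 40 in every stage, at a mean of 169.8 ± 9.65 TPM (SD, n = 2) in hDE. On unscaled TPM its means were 138 in hESC, 152 in hAFE and 170.3 in hPFE, and the call was lost on that scale alone of the 18 alternatives (adjusted p = 0.445). EIF4EBP1, a brake on cap-dependent translation, had the smallest change of the class, at 118 and 121 CPM in hDE against 71 and 71.6 CPM in hESC (log2 fold change 0.75, SE 0.12, adjusted p = 0.00254). Small changes with tight replicates thus passed the test beside large ones.

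Other members of the class were less evenly replicated. ATF3, a stress-induced bZIP repressor, was at 25.4 and 12 CPM in hESC, 105 and 104 in hDE, 42.3 and 15.9 in hAFE and 55.4 and 195 in hPFE. It rose 5.59-fold in hDE (log2 fold change 2.48, SE 0.67, adjusted p = 0.0202), but one hPFE library was higher still, and the call was lost when any 1 of the 4 libraries was left out (adjusted p 0.053 to 0.131). CHAC1, an enzyme that breaks down glutathione, was at 55.2 and 19.6 CPM in hESC, 94.4 and 102 in hDE, 17.1 and 18.9 in hAFE and 13.6 and 20.7 in hPFE. Its rise of 2.62-fold (adjusted p = 0.031) was called without hESC replicate 1, the higher of the pair, and lost without each of the other 3 libraries, with a highest adjusted p of 0.123. DDIT4, an inhibitor of the growth kinase mTORC1, showed the same spread in hESC, at 157 and 169.8 CPM in hDE against 102 and 24.8 CPM in hESC. It did not pass (adjusted p = 0.0693), but was called higher in 5 of 18 alternatives. CEBPB and CEBPG (partners of ATF4 on DNA), SESN2 (a leucine sensor), GADD45A (a growth arrest gene) and STC2 (a secreted glycoprotein) rose by 0.84 to 2.08 on the log2 scale. GADD45A kept the call without any 1 of the 4 libraries. The other four lost it without hESC replicate 2 and without hDE replicate 1, and CEBPB, SESN2 and STC2 also without hDE replicate 2 and CEBPG without hESC replicate 1, at highest adjusted p of 0.0945 for CEBPG to 0.152 for STC2. NUPR1, a small stress coregulator, had 24 counts in the 2 hDE libraries, 4 in hESC, 2 in hAFE and 15 in hPFE, too few to rank the stages.

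Among the amino acid genes the paired transporter subunits SLC7A5 and SLC3A2 changed most. Of 11, 6 rose in hDE, 1 fell and 4 did not pass, with a median log2 fold change of 0.56. SLC7A5 (chr16:87830023-87869488, minus strand), the light chain of the LAT1 importer of large neutral amino acids, was at 156 and 138 CPM in hESC, 1116 and 1189.8 in hDE, 94.5 and 106 in hAFE and 113 and 294 in hPFE. The hDE level was 7.85-fold that of hESC (log2 fold change 2.97, SE 0.40, adjusted p = 0.00109), and no other stage came near it. SLC3A2, the heavy chain that pairs with it, was at 313 and 299 CPM in hESC, 864 and 904 in hDE, 133 and 140.2 in hAFE and 150.1 and 232 in hPFE, and rose 2.89-fold (SE 0.20 on the log2 scale, adjusted p = 0.00108). Per length it was the most abundant of the 40 in hDE, at a mean of 209 TPM, where SLC7A5 was the fifth at 90.0 TPM. SLC7A11, the cystine importer that also pairs with SLC3A2, was at 321 and 302 CPM in hDE against 190.2 and 151 CPM in hESC (log2 fold change 0.87, SE 0.23, adjusted p = 0.0179).

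The synthesis enzymes did not move in one direction. ASNS, asparagine synthetase, was at 143 and 127 CPM in hESC, 249.8 and 283 in hDE, 104 and 118 in hAFE and 79.3 and 144 in hPFE, a rise of 1.98-fold (log2 fold change 0.98, SE 0.26, adjusted p = 0.0182). PHGDH, the first enzyme of serine synthesis, was at 398 and 361 CPM in hESC, 279 and 292 in hDE, 199 and 178 in hAFE and 150.2 and 101 in hPFE. It stepped down at each stage with no overlap between neighbours. The difference between hDE and hESC did not pass (log2 fold change -0.41, SE 0.19, adjusted p = 0.123), but was called in 5 of 18 alternatives. PSAT1, the second enzyme of that pathway, was at 539.7 and 489.6 CPM in hDE against 358 and 338 CPM in hESC. It did not pass (log2 fold change 0.56, SE 0.31, adjusted p = 0.176), but was called higher in 5 of 18 alternatives. PSPH, the third, gave 0.21 (SE 0.13, adjusted p = 0.237).

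SHMT2 and MTHFD2, mitochondrial enzymes that carry serine carbon into folate, rose by 0.50 and 0.70 (adjusted p = 0.0438 and 0.0406); SHMT2 lost the call under RLE scaling (adjusted p = 0.0535). ALDH18A1 and PYCR1, the first and last enzymes of proline synthesis, differed from each other. ALDH18A1 was at 144 and 151 CPM in hESC, 96.7 and 91.1 in hDE, 169 and 123 in hAFE and 149.9 and 112 in hPFE, and was the one member that fell in hDE (log2 fold change -0.65, SE 0.20, adjusted p = 0.031). PYCR1 was at 161 and 147 CPM in hDE against 140.4 and 130.4 CPM in hESC, a difference of 0.19 (SE 0.20, adjusted p = 0.488). With any 1 of the 4 libraries left out, 2 amino acid genes stayed called, SLC7A5 and SLC3A2; ASNS, SHMT2, MTHFD2, ALDH18A1 and SLC7A11 lost the call each time, at adjusted p from 0.0506 for SLC7A11 to 0.214 for MTHFD2. ALDH18A1 also lost it on TMM-scaled TPM.

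**Figure D3:**
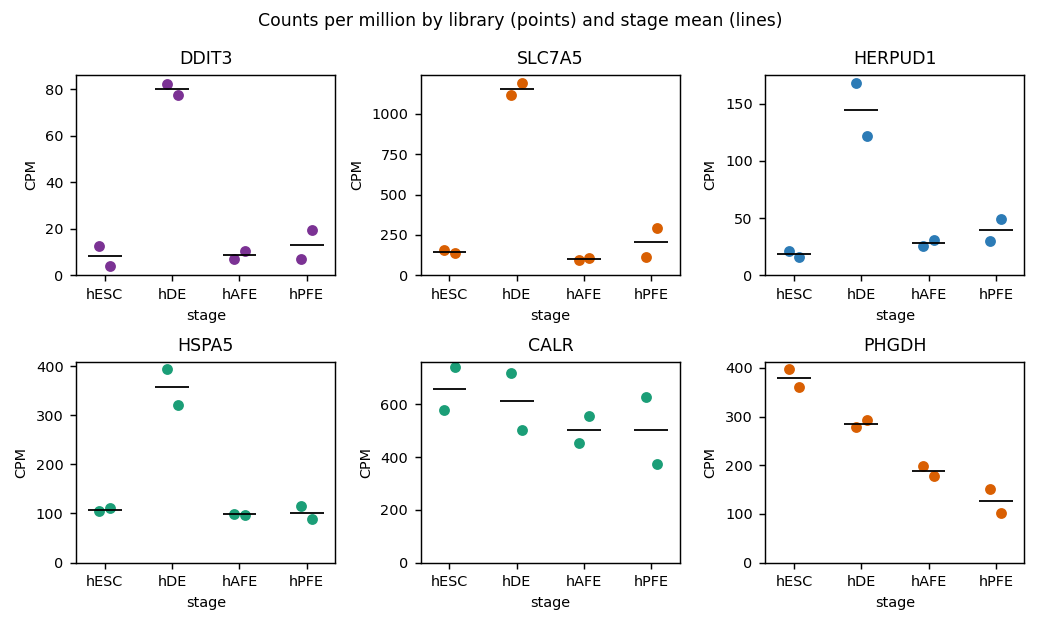
CPM of 6 genes in each library (points) with the mean of each stage (lines), on linear axes that start at 0 and stages in order of differentiation. DDIT3, SLC7A5, HERPUD1 and HSPA5 have both hDE points above all others, CALR has hDE points of 721 and 504 CPM that overlap each other stage, and PHGDH steps down at each stage with 398 and 361 CPM in hESC and 150.2 and 101 CPM in hPFE.

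The promoters of the regulators and amino acid genes were searched for the composite element bound by ATF4 with C/EBP factors, written TGATGNAA, on both strands. Promoter windows reach from 250 bases before to 50 bases after the start of transcription and come from RefSeq on GRCh38.p14, which held 33 of the 40 genes. EIF4EBP1, GADD45A, NUPR1, PSPH, PYCR1, SHMT2 and SLC7A11 are not covered. The element occurred in 3 of 12 regulators (ATF3, CHAC1 and CEBPG), 2 of 7 amino acid genes (ASNS and SLC3A2), 0 of 8 chaperones and 1 of 6 degradation and sensor genes (HERPUD1), and in 4.46% of 27305 genes in the table. The stretches below show it in capitals, 5′ to 3′ on the gene's strand, since these genes differ in fold change while carrying the same letters.
ATF3: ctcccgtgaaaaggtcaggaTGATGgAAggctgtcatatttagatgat
CEBPG: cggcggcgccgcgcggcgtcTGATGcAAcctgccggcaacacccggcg
ASNS: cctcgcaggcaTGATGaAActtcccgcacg
CHAC1: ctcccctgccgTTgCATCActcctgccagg
The positions are chr1:212565196-212565243 (plus) for ATF3, chr19:33374051-33374098 (plus) for CEBPG, chr7:97872458-97872487 (minus) for ASNS and chr15:40953251-40953280 (plus) for CHAC1, where the match lies on the opposite strand. Over these 4 genes the log2 fold change in hDE over hESC ran from 0.84 in CEBPG and 0.98 in ASNS to 1.39 in CHAC1 and 2.48 in ATF3. DDIT3, PPP1R15A and SLC7A5, which changed more, held no such match in this window. All 30 printed bases of ASNS and of CHAC1 lie in GENCODE 29 exons, and the CEBPG stretch lies inside its GENCODE 29 gene. A match is a run of letters and not a measured binding site. The element was chosen as a known one of this pathway, so the shares are no test of enrichment.

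The ER chaperones were mixed. Of 8, 3 rose in hDE and 5 did not pass, with a median log2 fold change of 0.70. HSPA5 (chr9:125234853-125241330, minus strand), which encodes BiP, the main ER chaperone and the protein that holds the sensors inactive, was at 105 and 111 CPM in hESC, 394 and 321 in hDE, 99 and 97.6 in hAFE and 116 and 88.1 in hPFE. It rose 3.31-fold (log2 fold change 1.73, SE 0.17, adjusted p = 0.00032), and the other 3 stages lay close together. MANF, a cochaperone of BiP, was at 96.1 and 74.2 CPM in hDE against 28.6 and 43 CPM in hESC (log2 fold change 1.25, SE 0.26, adjusted p = 0.00761). CRELD2, a secreted folding factor, was at 28.8 and 19.6 CPM in hDE against 11.1 and 11 CPM in hESC (log2 fold change 1.13, SE 0.32, adjusted p = 0.0232). MANF lost its call without hESC replicate 1 or hDE replicate 1 (highest adjusted p 0.0629) and CRELD2 without each library but hDE replicate 2 (highest 0.161), whereas HSPA5 kept it throughout.

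The most abundant chaperones per length did not pass in edgeR, although HSP90B1 passed in 6 of 18 alternatives, DESeq2 among them (adjusted p = 0.0448). CALR, the lectin chaperone calreticulin, was at 577 and 744 CPM in hESC, 721 and 504 in hDE, 453 and 556 in hAFE and 629 and 375 in hPFE, with hDE overlapping each of the other stages (log2 fold change in hDE over hESC -0.11, SE 0.28, adjusted p = 0.781). HSP90B1, the ER form of HSP90, was at 552 and 701 CPM in hESC, 1217 and 808 in hDE, 526 and 658 in hAFE and 864 and 513 in hPFE, and did not pass (log2 fold change 0.69, SE 0.30, adjusted p = 0.0957). SDF2L1, a cochaperone, was low throughout, at 3.6 and 4.92 CPM in hESC, 7.21 and 6.74 in hDE, 2.51 and 1.68 in hAFE and 2.37 and 1.52 in hPFE, and its difference in hDE did not pass (log2 fold change 0.71, SE 0.35, adjusted p = 0.142). The disulfide isomerases PDIA4 and PDIA6 gave 0.37 and -0.13 (adjusted p = 0.407 and 0.655). Per length, CALR and HSP90B1 averaged 114 and 164 TPM in hDE, where HSPA5 averaged 29.9 TPM.

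The 2 hDE libraries differed in the chaperones. All 8 were higher in hDE replicate 1 than in replicate 2, by a median of 0.45 on the log2(CPM + 0.1) scale, and all 6 degradation and sensor genes leaned the same way, by 0.35. The regulators and the amino acid genes differed by -0.11 and 0.082, and all genes tested by -0.0063. In hPFE all 8 chaperones were again higher in replicate 1, by a median of 0.68, while 12 of 15 regulators were lower there, by a median of -0.60. That library had the higher mesenchyme sum, mostly COL3A1, though LUM was lower in it. In hESC 13 of 15 regulators were higher in replicate 1, by a median of 0.94, and 7 of 8 chaperones were lower, by -0.28. The labels do not say that replicate numbers pair libraries across stages. The part of these shifts in the stage comparisons was not tested beyond leaving libraries out, and the chaperones called in hDE vs hESC changed with the library left out. Over these fits the log2 fold change ran from 1.57 to 1.83 in HSPA5, from 0.37 to 0.92 in HSP90B1 and from -0.39 to 0.093 in CALR. The number of chaperones called was 6 where the fit held the 4 hESC and hDE libraries alone and 5 with a voom weight per stage.

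**Figure D4:**
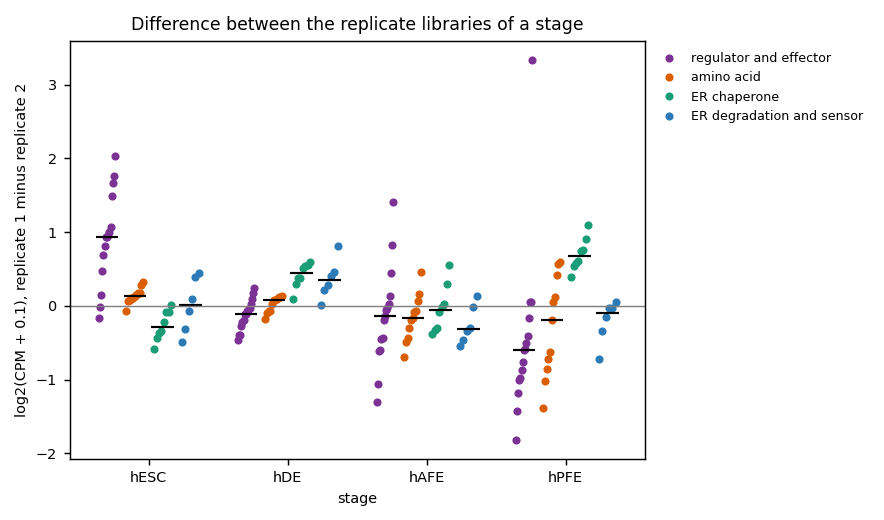
Difference between replicate 1 and replicate 2 of each stage, as log2(CPM + 0.1), with one point per gene, colours for the 4 classes and bars at the class medians. Chaperones lie above 0 in all 8 genes in hDE and in hPFE, and regulators lie above 0 in 13 of 15 genes in hESC and below it in 12 of 15 in hPFE.

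The chaperone promoters were searched for the ER stress element. This element, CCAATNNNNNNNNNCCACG on either strand, is bound by NF-Y together with ATF6 or XBP1, and it occurred in 5 of 8 chaperones (HSPA5, HSP90B1, CALR, PDIA6 and CRELD2), in XBP1 among 6 degradation and sensor genes, in 0 of 12 regulators and 0 of 7 amino acid genes, and in 0.0916% of the 27305 genes. The shorter form ERSE-II, in which 1 base separates ATTGG from CCACG, occurred in SDF2L1 and HERPUD1 and in 0.0696% of genes. The core TGACGTG of the unfolded protein response element occurred in ALDH18A1 alone of the 33, and in 2.4% of genes. Known elements can have been defined on promoters of genes such as these. The shares are therefore a description and no test of enrichment. The stretches are shown because genes with the full element include both HSPA5, which rose, and CALR and PDIA6, which did not pass.
HSPA5: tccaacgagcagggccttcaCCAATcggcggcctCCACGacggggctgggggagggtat
CALR: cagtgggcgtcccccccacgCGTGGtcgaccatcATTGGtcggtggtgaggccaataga
PDIA6: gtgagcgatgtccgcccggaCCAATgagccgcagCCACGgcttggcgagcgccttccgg
CRELD2: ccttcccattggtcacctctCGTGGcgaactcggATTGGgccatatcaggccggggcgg
XBP1: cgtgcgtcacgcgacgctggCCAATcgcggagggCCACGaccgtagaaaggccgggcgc
HERPUD1: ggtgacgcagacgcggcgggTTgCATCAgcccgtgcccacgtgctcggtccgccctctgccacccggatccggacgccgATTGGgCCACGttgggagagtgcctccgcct
SDF2L1: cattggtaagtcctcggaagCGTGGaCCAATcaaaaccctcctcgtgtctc
Capitals mark the fixed letters of the elements on the gene's strand, and in HERPUD1 both an ATF4 and C/EBP element and an ERSE-II. The PDIA6 and CRELD2 stretches lie inside their GENCODE 29 genes, chr2:10783391-10837977 and chr22:49918167-49927540. GENCODE 29 exons cover 12 bases of the PDIA6, 15 of the XBP1 and 8 of the HERPUD1 stretch. The positions on GRCh38.p14 are chr9:125241371-125241429 (minus) for HSPA5, chr19:12938364-12938422 (plus) for CALR, chr2:10812833-10812891 (minus) for PDIA6, chr22:49918534-49918592 (plus) for CRELD2, chr22:28800583-28800641 (minus) for XBP1, chr16:56931946-56932055 (plus) for HERPUD1 and chr22:21642094-21642144 (plus) for SDF2L1. Among the genes with the full element the log2 fold change in hDE over hESC was 1.73 in HSPA5, 1.13 in CRELD2, 0.99 in XBP1, 0.69 in HSP90B1, -0.11 in CALR and -0.13 in PDIA6.

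Of the 6 degradation and sensor genes 5 rose in hDE and 1 did not pass, with a median log2 fold change of 1.36 against 0.70 in the chaperones, a difference between classes that was not tested. HERPUD1 (chr16:56932048-56944863, plus strand), a scaffold of the degradation complex in the ER membrane that is induced by ATF4 and by ATF6, was at 21.4 and 16.3 CPM in hESC, 168 and 122 in hDE, 25.3 and 31.2 in hAFE and 30.2 and 49.6 in hPFE. It rose 7.69-fold (log2 fold change 2.94, SE 0.29, adjusted p = 0.000301) and had the largest change among the 14 ER genes. SEL1L, which holds the ubiquitin ligase of that complex, was at 50.8 and 62.9 CPM in hESC, 206 and 169 in hDE, 97.7 and 98.9 in hAFE and 143 and 146 in hPFE. It rose 3.30-fold (log2 fold change 1.72, SE 0.16, adjusted p = 0.000233), with hESC lowest and no overlap between any stages.

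XBP1, the factor spliced by IRE1, was at 94.7 and 99.2 CPM in hESC, 194 and 192 in hDE, 76 and 105 in hAFE and 124 and 126 in hPFE, a rise of 1.99-fold (log2 fold change 0.99, SE 0.16, adjusted p = 0.0028). DNAJB9, an ER cochaperone that is a known target of spliced XBP1, was at 9.25 and 13.1 CPM in hESC, 44.3 and 25.3 in hDE, 19.2 and 28 in hAFE and 20.3 and 22.6 in hPFE. It rose 3.11-fold (SE 0.32 on the log2 scale, adjusted p = 0.00559), although hDE replicate 2 overlapped hAFE, and lost the call without hESC replicate 1 (adjusted p = 0.0518). SYVN1, the ligase HRD1, rose by 1.08 (SE 0.22, adjusted p = 0.00616), a call lost without hESC replicate 2 or hDE replicate 1 (highest adjusted p 0.0541). EDEM1, which routes misfolded glycoproteins to degradation, was at 28.8 and 21.1 CPM in hESC, 40.6 and 30.6 in hDE, 22.7 and 20.8 in hAFE and 36.1 and 45.7 in hPFE, and did not pass in hDE (log2 fold change 0.51, SE 0.22, adjusted p = 0.0957).

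**Figure D5:**
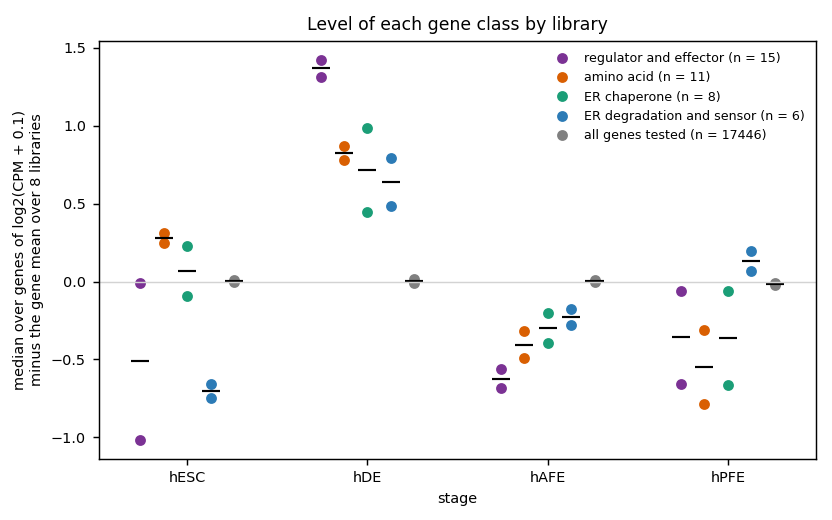
Median over the genes of a class of log2(CPM + 0.1) minus the gene's mean over the 8 libraries, with one point per library, bars at the stage means, colours for the 4 classes and grey for all 17446 genes tested. All 4 classes stand highest in hDE, at 1.31 and 1.42 for the regulators, and all 4 are lower in hAFE and hPFE. The degradation and sensor genes are lowest in hESC, at -0.75 and -0.66.

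From definitive endoderm to anterior foregut the levels went down. In hAFE against hDE, 29 of the 40 genes fell, 1 rose and 10 did not pass, where 30.2% of all genes tested were called, 15.2% lower and 15% higher. The median log2 fold change was -1.33 over the 40 and 0.012 over all genes tested. This comparison shares the hDE libraries with the one against hESC, so its direction is not separate evidence that hDE was high. By class, 12 of 15 regulators fell (median -1.95), 9 of 11 amino acid genes fell and ALDH18A1 rose (median -1.23), 4 of 8 chaperones fell (median -1.03; 6 by DESeq2, with HSP90B1 and CRELD2 added) and 4 of 6 degradation and sensor genes fell (median -0.82).

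CEBPB fell most, to 0.925 and 1.46 CPM in hAFE against 15.5 and 17.7 CPM in hDE (log2 fold change -3.79, SE 0.39, adjusted p = 0.000499). SLC7A5 fell 11.5-fold (log2 fold change -3.53, SE 0.41, adjusted p = 0.000802), TRIB3 9.48-fold (-3.24, SE 0.46, adjusted p = 0.00196) and DDIT3 9.31-fold (-3.22, SE 0.61, adjusted p = 0.00631). These 4 genes had no overlap between the stages. EIF4EBP1, ATF5, SLC3A2 and PYCR1 also fell and kept the call under all 18 alternatives, as did CHAC1, at 17.1 and 18.9 CPM in hAFE against 94.4 and 102 CPM in hDE (log2 fold change -2.45, adjusted p = 0.00527). Among the ER genes HSPA5 fell 3.64-fold (log2 fold change -1.86, SE 0.17, adjusted p = 0.000331), MANF 3.72-fold (adjusted p = 0.00189) and HERPUD1 5.12-fold (adjusted p = 0.000969). CALR gave -0.28 (adjusted p = 0.492), HSP90B1 -0.77 (adjusted p = 0.0853), DNAJB9 -0.56 (adjusted p = 0.213) and SYVN1 -0.40 (adjusted p = 0.196). PHGDH gave -0.60, with an adjusted p of 0.0501, and was called in 11 of 18 alternatives, DESeq2 among them (adjusted p = 0.0148). PDIA4 and EDEM1 fell by 1.09 and 0.71 (adjusted p = 0.0474 and 0.0445) and lost the call in 9 and 10 of 18 alternatives, among them leaving out any 1 of the 4 libraries (highest adjusted p 0.246 and 0.261).

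Without either hDE library fewer genes were called, among the 40 and among all genes tested, and those of the 40 were all lower. ALDH18A1 kept its call only without hAFE replicate 2 among the 4 libraries compared. Its log2 fold change was 0.63 with all libraries (adjusted p = 0.044) and ran from 0.38 to 0.85 without one. On the unscaled deposited TPM, where the median of all genes lay at 0.50, 12 of the 40 were called lower and 1 higher. All genes gave 818 lower and 6457 higher there. After TMM scaling 28 of the 40 were called, all lower, where all genes gave 2432 lower and 1987 higher.

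Between anterior and pharyngeal foregut little passed. In hPFE against hAFE, 1 of the 40 genes was called by edgeR, and it was higher in hPFE, where 7.49% of all genes tested were called, 4.77% higher and 2.71% lower. At an unadjusted p under 0.05 there were 8 higher and 2 lower, and DESeq2 called 5 higher and 1 lower. The called gene was EDEM1, at 36.1 and 45.7 CPM in hPFE against 22.7 and 20.8 CPM in hAFE (log2 fold change 0.91, SE 0.22, adjusted p = 0.049). That call was lost in 12 of 18 alternatives, at adjusted p up to 0.191, among them leaving out either hESC or hDE library, hAFE replicate 1 or 2, or hPFE replicate 2. The hPFE replicates lay far apart in ATF3, at 55.4 and 195 CPM, and in SLC7A5, at 113 and 294 CPM, so that ATF3 gave a log2 fold change of 2.10 with an adjusted p of 0.0934.

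Set against the undifferentiated cells, the pharyngeal stage differed in direction by class. In hPFE against hESC, 8 of the 40 genes rose, 10 fell and 22 did not pass, where 45% of all genes tested were called, 21.6% higher and 23.3% lower. The 18 calls are the same share of the 40, so their number does not set the 40 apart from genes at large. The median log2 fold change was -0.22. Of the amino acid genes 7 of 11 fell (median -0.68), by edgeR and by DESeq2 alike, and none was called higher (0 at an unadjusted p under 0.05 by edgeR and 0 by DESeq2). Of the degradation and sensor genes 5 of 6 rose (median 0.83), and 4 by DESeq2. Of the chaperones PDIA6 and SDF2L1 fell (median -0.31), and of the regulators PPP1R15A, GADD45A and ATF3 rose and EIF4EBP1 fell (median -0.029).

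PHGDH was lowest here, at 150.2 and 101 CPM in hPFE against 398 and 361 CPM in hESC (log2 fold change -1.59, SE 0.20, adjusted p = 0.000859). PYCR1 fell 2.82-fold (log2 fold change -1.49, SE 0.21, adjusted p = 0.00136), SHMT2 2.22-fold (adjusted p = 0.00166) and PSPH 1.92-fold (adjusted p = 0.0014), and these 4 kept the call without any 1 of the 4 libraries. PSAT1, MTHFD2 and SLC3A2 fell by 0.95, 0.66 and 0.68 and lost the call without either hESC library or hPFE replicate 1, at highest adjusted p of 0.135, 0.218 and 0.111. MTHFD2 and SLC3A2 turned positive on unscaled TPM, where the median of all genes lay at 0.36, and the calls of PSAT1, PSPH and SHMT2 were lost. On that scale 9 of the 40 were called higher and 3 lower, where all genes gave 5331 higher and 1440 lower. After TMM scaling of TPM 6 of the 40 were higher and 8 lower, where all genes gave 3250 higher and 3700 lower. SEL1L stood at 143 and 146 CPM in hPFE against 50.8 and 62.9 CPM in hESC (log2 fold change 1.34, SE 0.16, adjusted p = 0.000699) and kept its call in all 18 alternatives.

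HERPUD1 was 2.11-fold and EDEM1 1.64-fold higher in hPFE than in hESC (adjusted p = 0.0161 and 0.031), and both lost the call without hESC replicate 2 or hPFE replicate 2 (highest adjusted p 0.116 and 0.189). DNAJB9 and SYVN1 rose by 0.94 and 0.68 and lost the call without any 1 of the 4 libraries (adjusted p 0.0641 to 0.23). PPP1R15A was 3.95-fold higher (log2 fold change 1.98, SE 0.38, adjusted p = 0.00486) and GADD45A 3.63-fold higher (adjusted p = 0.00296), while DDIT3, TRIB3 and ASNS gave 0.68, 0.48 and -0.27 (adjusted p = 0.372, 0.394 and 0.413). ATF3 was 6.67-fold higher (log2 fold change 2.74, SE 0.67, adjusted p = 0.0134), a call lost without hESC replicate 2 or hPFE replicate 2 (highest adjusted p 0.0986). PDIA6 and SDF2L1 each lost the call without either hESC library or hPFE replicate 2, at highest adjusted p of 0.202 and 0.209. The calls in this comparison depended on which library was left out, and fewer genes were called higher without hPFE replicate 2 or hESC replicate 2. Each of the 4 libraries was left out in turn, among them hPFE replicate 1, with its high COL3A1. Over these fits the log2 fold change ran from 1.18 to 1.52 in SEL1L and from -1.91 to -1.35 in PHGDH. In HERPUD1 it ran from 0.67 to 1.39 and in DDIT4 from -0.70 to 1.30.

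Other genes of these pathways, taken from lists of known members, placed the 40 in context in hDE against hESC. Of all genes tested 20.3% were called higher and 21.6% lower, and these lists are to be read against that. The lists too were chosen with earlier results of these data known. Among 16 sensors and eIF2 factors, 4 rose, near the share over all genes, and 1 fell, below that share (median 0.14). ERN1, the sensor IRE1, rose to 11.8 and 13.1 CPM in hDE against 4.26 and 3.39 CPM in hESC (log2 fold change 1.70, adjusted p = 0.0382), and PPP1R15B, the constitutive partner of the eIF2alpha phosphatase, rose by 0.90 (adjusted p = 0.0016). EIF2AK4, the amino acid sensor GCN2, fell to 58.2 and 52.6 CPM in hDE against 181 and 181 CPM in hESC (log2 fold change -1.71, SE 0.12, adjusted p = 8.63e-05). PERK, encoded by EIF2AK3, gave 0.25 (adjusted p = 0.303) and was added here after its values were seen.

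Among tRNA synthetases, which charge tRNAs with amino acids, 4 of 12 with known ATF4 binding rose and 1 fell (median 0.34), and 3 of 8 others fell (median -0.28); the difference between these lists was not tested. WARS rose to 519 and 491 CPM in hDE against 87.9 and 94.4 CPM in hESC (log2 fold change 2.47, adjusted p = 0.00164) and SARS by 1.18 (adjusted p = 0.000404), while LARS fell by 0.59 (adjusted p = 0.00994). FARSB and VARS, of the second list, fell by 1.01 and 0.89 (adjusted p = 0.00109 and 0.0173). In hAFE against hDE 11 of the 12 fell, where 15.2% of all genes tested were called lower and 15% higher. Of the 8 others the one call was FARSB, which rose.

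Of 20 further ATF4-type genes 10 rose in hDE and 1 fell (median 0.54). SLC1A4, a neutral amino acid transporter, rose to 27.5 and 27.4 CPM in hDE against 3 and 0.961 CPM in hESC (log2 fold change 3.79, adjusted p = 0.00184), and unlike SLC7A5 it stayed up, at 18.2 and 32.8 CPM in hAFE and 19.3 and 39.9 CPM in hPFE. VEGFA, an angiogenic growth factor, rose by 2.60 (adjusted p = 0.000384) and KLHL24 fell by 1.21 (adjusted p = 0.0174).

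Outside the chaperones above, 6 of 14 ER folding genes rose and 1 fell (median 0.59). DNAJC3, the cochaperone P58IPK, rose by 1.42 (adjusted p = 0.00144) and SIL1, the exchange factor of BiP, by 1.51 (adjusted p = 0.00994), while TXNDC5 fell by 1.43 (adjusted p = 0.00115). Of 16 further ER degradation genes 9 rose (median 0.58), among them SELENOS (log2 fold change 1.57, adjusted p = 0.000285). Of 14 genes of ER translocation and export 7 rose and 1 fell (median 0.42), with SEC31A at 1.11 (adjusted p = 0.0015), SSR1 at 1.03 (adjusted p = 0.00252) and SEC24D at -0.99 (adjusted p = 0.0161).

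Stress genes of other compartments were also listed, in short lists whose difference from the pathway lists was not tested. Of 8 cytosolic heat shock genes 2 rose (median 0.27), BAG3 by 1.89 (adjusted p = 0.00238) and HSPA1A by 1.18 (adjusted p = 0.0113). Of 6 mitochondrial chaperone and protease genes 2 fell (median -0.12), HSPE1 by 1.45 (adjusted p = 0.000787) and HSPD1 by 0.94 (adjusted p = 0.00283). Of 7 genes of the NRF2 antioxidant response 1 fell (median 0.36): HMOX1, haem oxygenase, fell to 1.96 and 1.59 CPM in hDE against 15.1 and 24.3 CPM in hESC (log2 fold change -3.47, SE 0.38, adjusted p = 0.000443).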

How the data were processed

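Strand-specific, rRNA-depleted, paired-end RNA-seq of 8 H1 libraries (per the labels' protocols) was quantified by gene by the authors. The deposited expected counts are RSEM estimates in which reads that match several genes are split, and the deposited TPM values are per effective length, as the file headers and RSEM's column names give it. RSEM, DESeq2 and the build hg38 are named without versions in the submitters' processing notes, and the aligner was not given in the sources used here. Among the 40 genes the deposited posterior SD of the counts, per the file headers, was at most 0.0104 of the count (ASNS). Each table holds 59526 rows, of which 58780 matched GENCODE 29; 97 spike-in and 649 other rows held 0 counts.

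Expected counts were rounded and filtered with filterByExpr, leaving 17446 genes. All 8 libraries were fitted together by stage in edgeR 4.0.16 (R 4.3.3; TMM, quasi-likelihood test), since each stage has 2 libraries, and p-values were Benjamini-Hochberg adjusted over all genes with a threshold of 0.05. The SE is the absolute log2 fold change divided by the square root of F. CPM values are TMM-scaled. DESeq2 1.42.0 and limma 3.58.1 served in alternatives. On simulated hDE vs hESC counts for 15693 genes the edgeR step recovered 72% of 2-fold and 99% of 4-fold changes. The simulation gave all libraries the same spread and changed few genes. In these data the spread was wider in hAFE and hPFE and many genes differed, so the recovery does not carry over to them.

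The members, classes and lists were chosen with earlier results of these data known. Values per library are given for 17 set genes, the 3 largest and the smallest change of each class in hDE vs hESC, any call against its class, and any call in hPFE vs hAFE; from each other list up to 2 calls in each direction are named, except 1 gene that is not reported here. Motif shares are counted per gene over RefSeq windows. The voom fit and the TMM scaling of TPM were added after seeing the data.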

Additional observations from a re-analysis of the deposited data

How the results depend on the processing

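With each library left out in turn, a stage with 1 library is assumed to vary like the others. Over these fits hDE vs hESC gave 3695 to 8465 genes of all tested (7304 with all libraries) and 14 to 31 of the 40 (28), hAFE vs hDE 2435 to 6363 (5267) and 19 to 35 (30), hPFE vs hAFE 479 to 1552 (1306) and 0 to 6 (1), and hPFE vs hESC 3822 to 8422 (7842) and 9 to 20 (18). By class in hDE vs hESC the ranges were 7 to 13 regulators and effectors, 2 to 9 amino acid genes, 1 to 4 chaperones and 4 to 5 degradation and sensor genes. On unscaled log2(TPM + 1) the 40 genes gave 12 calls in hDE vs hESC and 13 in hAFE vs hDE. Those in hDE vs hESC were 5 regulators, 3 amino acid genes, 2 chaperones and 2 degradation and sensor genes. In hPFE vs hESC there were 12 (9 higher and 3 lower), and in hPFE vs hAFE 0, where all genes gave 812. The median of all genes is off centre on that scale. There SEL1L and EDEM1 turned to 0.024 and 0.14 in hAFE vs hDE and MTHFD2 and SLC3A2 to 0.11 and 0.083 in hPFE vs hESC, with no adjusted p under 0.05. With a library left out DDIT4 ran from -0.70 to 1.30 in hPFE vs hESC (-0.029 with all), the highest without hESC replicate 1. In hPFE vs hAFE the count over all genes was 3234 with no count filter, 52 with only those 4 libraries and 447 with a voom weight per stage, and that of the 40 was 6 with DESeq2, 9 with no filter and 0 with the 4 libraries, with voom weights and with TMM-scaled TPM. The chaperones gave 6 calls in hDE vs hESC with the 4 libraries and 5 with voom weights; the cause was not tested. Deviations of same-numbered libraries correlated at -0.041 to 0.061 across genes, so no strong shift was shared between them. This cannot tell whether equal replicate numbers share a culture or a day, which the labels do not say. With a replicate block 26, 30, 0 and 15 of the 40 genes were called in the 4 comparisons in the order above. Of gene-level results under the alternatives, 2450 kept direction and side of the threshold, 207 lost the call, 103 gained it, 5 changed sign with a call on either side and 108 changed sign with no call on either. With no molecular identifiers, counts cover sampling of reads only.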
